A study of Mus musculus with 10 samples.

Results

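Keratins are the intermediate filament proteins of epithelial cells, and their transcripts were described here in the luminal and basal layers of the mouse mammary gland. The family was taken as every gene whose symbol is Krt followed by a number and, in some cases, 1 letter, with keratin-associated proteins left out. This rule found 54 keratin genes among the 24594 genes of the count table. The data came from 5 wild type C57BL/6J mice with virgin mammary glands, and the labels name no treatment, transgene or deletion for either group. From each mouse, luminal cells, which line the lumen of the duct, and basal cells, which surround them and can contract, were sorted by flow cytometry on EpCAM and CD49f. This gave 5 luminal and 5 basal RNA-seq libraries. The labels give no age, the groups are defined by sorting gates, and each library is 1 animal. The sample titles name the opposite layer in all 10 libraries, whereas the cell type label, the source name and the library description accord with one another, and the cell type label was used throughout.

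Keratins are built as pairs of 1 acidic type I protein and 1 basic type II protein, so a cell that makes a filament has to express members of both types. Simple, single-layered epithelia are known for Krt8 and Krt18 with Krt7 and Krt19, and the basal layer of stratified epithelia for Krt5 and Krt14. In the mammary gland these pairs are in common use as markers of the luminal and the basal layer, and the remaining members are mostly known from suprabasal epidermis, hair follicle, nail or stress states of skin.

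The type I keratins lie in a cluster on chromosome 11, which holds 27 of the 54 members, and the type II keratins in a cluster on chromosome 15, which holds the other 27, Krt18 being the type I gene at the end of that cluster. This leaves 28 type I and 26 type II members. Of the 54, 49 had at least 1 count and 5 (Krt24, Krt33a, Krt34, Krt35 and Krt76) had 0 in all 10 libraries. The filter on low counts left 23 keratins to be tested and dropped 31.

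Library totals lay between 13203146 and 17998165 counts, and between 16840 and 17842 genes had a count. Of the lineage markers that are not keratins, 10 of 10 luminal and 9 of 9 basal genes were higher in the layer they name, against 33.6% and 31.2% of all genes tested. Markers of other cell types were low but not equal. The summed endothelial and pericyte list was 98.0 to 271 CPM (counts scaled to a common library total, here the TMM-scaled one) in luminal and 28.9 to 44.1 CPM in basal libraries, where nearly all of the luminal sum was Notch3. Of its 4 genes tested, Notch3 was higher in luminal libraries, Rgs5 and Cdh5 were higher in basal libraries and Pecam1 was not called. The summed immune list was 4.13 to 11.3 CPM in luminal and 12.2 to 34.4 CPM in basal libraries, mostly Cd52 in the former and Cd74 in the latter, with Cd3e at 0. Of its 3 genes tested, Cd74 was higher in basal libraries, and Cd52 and Lyz2 were higher in luminal libraries. The fibroblast list (22.1 to 113 and 24.8 to 41.5 CPM) and the adipocyte list (at most 1.06 CPM) overlapped between layers. For its mammary sorts the study also stained erythroid, endothelial and leukocyte cells through TER-119, CD31 and CD45. The CD45 gene Ptprc was at most 0.381 CPM and the CD31 gene Pecam1 at most 5.99 CPM in any library. The part of such cells in the keratin values was not tested, and in bulk libraries fewer cells of a type and less RNA per cell cannot be told apart.

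The first comparison asked which keratins differ between the layers. In edgeR's quasi-likelihood test with Benjamini-Hochberg adjustment over all 14609 genes tested, 19 of the 23 keratins passed an adjusted p of 0.05. The background is high, since 64.8% of all genes tested were called in this comparison, 33.6% as higher in luminal and 31.2% as higher in basal libraries. Higher in luminal libraries were 7 keratins (Krt7, Krt8, Krt18, Krt19, Krt78, Krt79 and Krt87). Higher in basal libraries were 12 (Krt5, Krt6a, Krt6b, Krt14, Krt15, Krt16, Krt17, Krt23, Krt42, Krt71, Krt75 and Krt83). Not called were Krt1, Krt10, Krt77 and Krt80.

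The differences were often large. A call with a difference of at least 4-fold was reached by 17 of the 23 keratins tested, against 18.5% of all genes tested. In 18 keratins the 5 luminal and the 5 basal values did not overlap, 7 being higher in luminal and 11 in basal libraries, against 50.1% of all genes tested, 24.7% and 25.3% by direction. Krt75 was the called keratin whose groups overlapped. Krt42, Krt71, Krt75, Krt78 and Krt79, which count among the 17, passed the filter on low counts through the layer where they are high. The filter thus largely set their direction and favoured a large difference. Apart from Krt75, they also count among the 18 without overlap. The median log2 fold change of luminal over basal was -2.72 over the 23 keratins, also with Krt71 at the bound given below, and 0.05 over all genes tested.

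**Figure D1:**
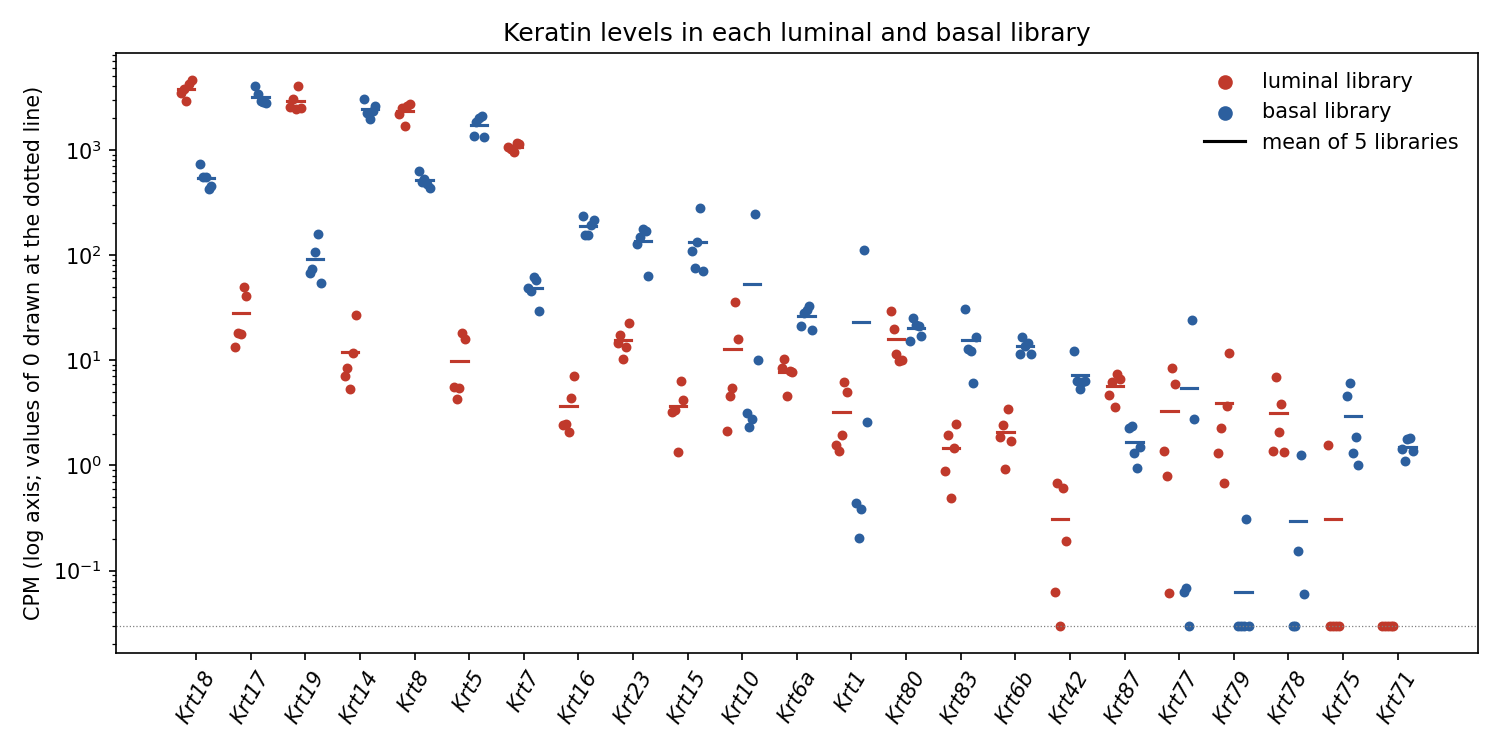
Level of the 23 keratins tested, in CPM on a log axis, with 1 point per library (red, luminal; blue, basal), a bar at the mean of 5 libraries and values of 0 at the dotted line. Krt18, Krt19, Krt8 and Krt7 stand at 949.6 to 4572 CPM in luminal libraries and Krt17, Krt14 and Krt5 at 1320 to 4008 CPM in basal libraries, while Krt10, Krt1 and Krt77 have a single basal library far above the rest.

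**Figure D2:**
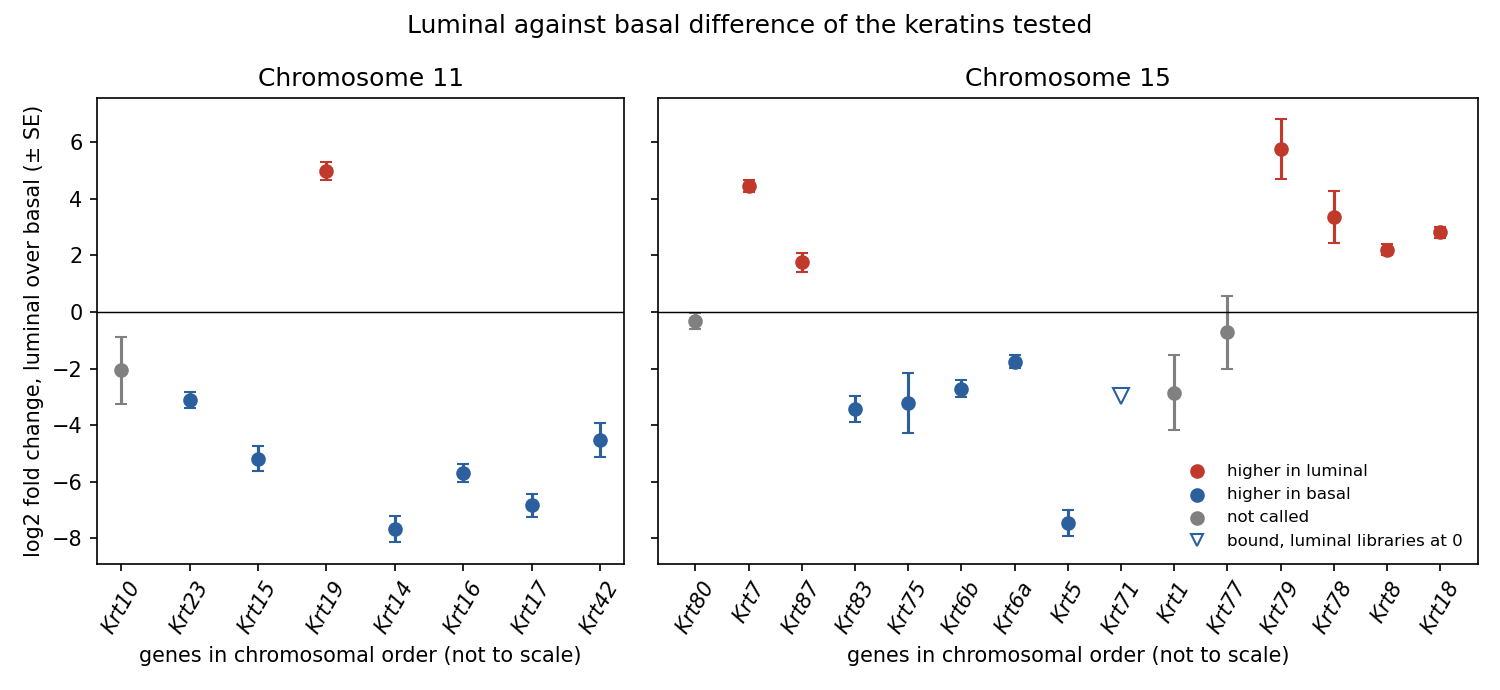
Log2 fold change of luminal over basal with its standard error for the tested keratins, in chromosomal order on chromosomes 11 and 15, with red for higher in luminal, blue for higher in basal and grey for not called. Krt19 is the one red point on chromosome 11, and the open triangle of Krt71 marks a bound, since its luminal libraries held no count.

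As a sum, keratin transcripts had overlapping levels in the layers. The summed keratin level was 10247 ± 1612 CPM over the 5 luminal and 9165 ± 884 CPM over the 5 basal libraries (mean ± SD), and the ranges overlapped. As a share of the counts of a library, without scaling factors, keratins made up 1.09% ± 0.118 in luminal and 0.856% ± 0.0605 in basal libraries (mean ± SD, n = 5 each), and here the ranges did not overlap. What differed was the makeup of the sum. Krt7, Krt8, Krt18 and Krt19 made up 98.3% to 99.1% of the keratin CPM of luminal libraries and 11.7% to 14.4% of that of basal libraries. Krt5, Krt14 and Krt17 made up 0.277% to 0.748% in luminal and 76.6% to 82.6% in basal libraries.

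The simple epithelial keratins carry the luminal pattern, and the 300 bases around the start of 3 of them are shown with those of the basal gene Krt5, since these 4 genes of 1 cluster stand at high levels in different layers. The windows are from RefSeq on GRCm38.p6, run from 250 bases before to 50 bases after the annotated start in the direction of transcription, and have capitals where a searched motif was found on either strand. Krt7 lies on the plus strand at chr15:101412153-101412452, Krt8 on the minus strand at chr15:102004293-102004592, Krt18 on the plus strand at chr15:102027966-102028265 and Krt5 on the minus strand at chr15:101712856-101713155.
Krt7: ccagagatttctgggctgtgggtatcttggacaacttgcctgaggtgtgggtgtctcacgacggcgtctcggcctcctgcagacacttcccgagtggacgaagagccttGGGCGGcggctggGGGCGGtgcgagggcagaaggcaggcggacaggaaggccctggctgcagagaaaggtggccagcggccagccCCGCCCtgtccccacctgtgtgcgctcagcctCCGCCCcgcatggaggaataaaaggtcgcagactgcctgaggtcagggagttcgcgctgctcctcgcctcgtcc
Krt8: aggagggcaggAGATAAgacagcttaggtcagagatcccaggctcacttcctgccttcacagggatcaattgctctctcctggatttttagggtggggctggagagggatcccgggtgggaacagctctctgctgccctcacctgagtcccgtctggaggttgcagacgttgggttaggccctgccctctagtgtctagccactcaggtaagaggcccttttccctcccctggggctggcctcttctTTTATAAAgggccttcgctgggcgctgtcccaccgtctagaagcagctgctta
Krt18: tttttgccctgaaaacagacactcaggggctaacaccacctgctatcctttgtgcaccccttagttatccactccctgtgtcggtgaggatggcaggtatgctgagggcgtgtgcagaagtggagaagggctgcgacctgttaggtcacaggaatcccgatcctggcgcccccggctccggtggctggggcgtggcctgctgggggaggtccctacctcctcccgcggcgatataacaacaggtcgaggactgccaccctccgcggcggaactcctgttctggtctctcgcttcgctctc
Krt5: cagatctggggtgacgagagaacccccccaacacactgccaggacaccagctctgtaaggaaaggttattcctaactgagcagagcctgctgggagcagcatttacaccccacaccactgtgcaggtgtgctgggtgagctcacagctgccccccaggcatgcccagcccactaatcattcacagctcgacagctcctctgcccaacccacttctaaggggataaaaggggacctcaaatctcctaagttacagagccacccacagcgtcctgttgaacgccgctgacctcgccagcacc

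Short motifs were searched on both strands. One was the TATA box, spelled TATAAA. Another was the GC box, spelled GGGCGG. A site of the AP-1 kind was searched as TGANTCA. A site of the GATA factor kind was searched as AGATAA. Krt7 held GGGCGG at positions -141, -128, -56 and -24 from the start, the last 2 of these on the opposite strand. In Krt8 the capitals near the start hold TATAAA on both strands, with an overlap, and those near the beginning AGATAA. The RefSeq start of Krt8 lies 140 bases from the nearest GENCODE start, so positions in that window depend on which start is used. Krt18 and Krt5 held none of the 4 motifs, which says only that these letters are not in these windows.

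A window was given for 36 of the 54 keratins. TATAAA was found in 19 of the 36 (52.8%), against 13.6% of all 32851 promoter windows of the same length. Among keratins it was found in 4 of the 13 tested and in 15 of the 23 not tested. These counts take a match at any position in the window. Between 20 and 40 bases before the start it was found in 13 of the 36 and in 2 of the 13 tested. The share of all windows with a match at these positions was not counted. GGGCGG was found in 2 of the 36, Krt7 and Krt75, against 35.7% of all windows. TGANTCA was found in 1 of the 36 against 7.81%, and AGATAA in 10 of the 36 against 11.2%. The tested keratins with a window thus held TATAAA in a smaller share than those not tested, a description over few genes. Only 13 of the 23 keratins tested had a window. Krt17, Krt19, Krt15, Krt16, Krt6a and Krt6b were among those without 1.

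Krt18, the type I partner of Krt8 in simple epithelia, was the most abundant keratin of luminal libraries per length of transcript. Its level in libraries 1 to 5 was 3442, 3813, 2920.3, 4245 and 4572 CPM in luminal and 727, 552, 549, 421 and 453 CPM in basal cells. Every luminal value lay above every basal value, yet each basal library held at least 421 CPM. On the log2 scale luminal minus basal was 2.81 (SE 0.21, adjusted p = 3.12e-08, edgeR's quasi-likelihood test). The gene lies at chr15:102028216-102032026 on the plus strand and has 7 exons.

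Krt8, its type II partner, lies next to Krt18 at chr15:101996711-102004342 on the minus strand, with 23873 bases between the genes. Its level was 2209, 2507, 1686, 2616 and 2716 CPM in luminal libraries 1 to 5 and 627, 490.4, 529.6, 474 and 429 CPM in basal libraries 1 to 5. The groups did not overlap, and the log2 fold change of 2.20 (SE 0.18, adjusted p = 1.13e-07, edgeR's quasi-likelihood test) was the smallest of the 4 abundant luminal keratins. Of the 51-base windows of the Krt8 transcript, 26.7% also occur in a pseudogene, Krt8-ps, so part of its reads could have been placed elsewhere.

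Krt8 and Krt18 pair in the filament, and their ratio was lower in each luminal than in each basal library. Per kilobase of transcript, Krt8 was at 0.471, 0.482, 0.424, 0.452 and 0.436 of Krt18 in luminal libraries and at 0.633, 0.651, 0.708, 0.826 and 0.695 in basal libraries. The ranges did not overlap. This value was read from CPM per kilobase and was not tested.

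Krt19, a type I keratin that lacks the usual tail domain, lies at chr11:100140810-100145926 on the minus strand. It was at 2544, 3023, 2417, 4031 and 2497 CPM in luminal and 66.8, 72.7, 107, 157 and 53.6 CPM in basal libraries. Animal 4 was the highest in both layers. This gave a log2 fold change of 4.99 (SE 0.32, adjusted p = 8.83e-09, edgeR's quasi-likelihood test), and Krt19 was at 0.703 ± 0.135 (SD, n = 5) of Krt18 per kilobase in luminal but 0.166 ± 0.103 (SD, n = 5) in basal libraries.

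Krt7, a type II keratin of ducts and glands, lies at chr15:101412403-101427806 on the plus strand. Its level was 1065, 1013, 949.6, 1153 and 1141 CPM in luminal and 48.4, 45.5, 62.1, 58.4 and 29.4 CPM in basal libraries. It was the steadiest of the abundant keratins between animals, with a coefficient of variation (CV, the SD as a percent of the mean) of 8.06% in luminal libraries, against 17.1% to 23.2% for Krt8, Krt18 and Krt19. On the log2 scale luminal minus basal was 4.45 (SE 0.21, adjusted p = 5.84e-10, edgeR's quasi-likelihood test).

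Krt23, a type I keratin grouped here with the simple epithelial members, went the other way. It was at 14.4, 17.4, 10.3, 13.3 and 22.7 CPM in luminal and 127, 147, 177, 168 and 62.9 CPM in basal libraries. All basal values lay above the luminal ones, with a log2 fold change of -3.12 (SE 0.28, adjusted p = 2.6e-07, edgeR's quasi-likelihood test). Of the 6 simple epithelial members, 5 were tested, of which 4 were higher in luminal and Krt23 in basal libraries, against 33.6% and 31.2% of all genes tested. The other, Krt20 of the intestinal and urothelial lining, had 15 counts in basal library 3 and at most 3 in any other.

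Basal layer and activation keratins formed the opposite group, and 7 of 7 were higher in basal libraries with no overlap between the groups, against 31.2% of all genes tested called and 25.3% without overlap in that direction. Krt17, a type I keratin of appendages and of injured skin, was the most abundant keratin of basal libraries per length of transcript. It was at 13.3, 18.1, 17.9, 50.01 and 40.5 CPM in luminal and 4008, 3414, 2887, 2819 and 2802 CPM in basal libraries. This gave a log2 fold change of -6.83 (SE 0.41, adjusted p = 4.53e-09, edgeR's quasi-likelihood test). The gene lies at chr11:100256215-100261029 on the minus strand.

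Krt14, the type I keratin of basal keratinocytes and myoepithelium, lies at chr11:100203162-100207510 on the minus strand. It was at 7.13, 8.37, 5.34, 11.6 and 26.8 CPM in luminal and 3040.2, 2249, 1955, 2335 and 2581 CPM in basal libraries. This was a 205-fold difference, with a log2 fold change of -7.68 (SE 0.46, adjusted p = 4.44e-09, edgeR's quasi-likelihood test). In the main fit it was the largest among the keratins with a count in both layers, with Krt5 (-7.46, SE 0.47) within its error. Over the alternatives run, the log2 fold change of Krt14 ranged from -8.45 to -7.51. The highest luminal value belonged to animal 5.

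Krt5, the type II partner of Krt14, lies at chr15:101707069-101712905 on the minus strand. It was at 5.503, 4.27, 5.46, 18.1 and 15.9 CPM in luminal and 1351, 1817, 2004, 2114 and 1320.0 CPM in basal libraries. Animals 4 and 5 had the highest luminal values, as for Krt17. On the log2 scale luminal minus basal was -7.46 (SE 0.47, adjusted p = 7.34e-09, edgeR's quasi-likelihood test). The ratio of Krt5 to Krt14 per kilobase was 0.343, 0.624, 0.792, 0.700 and 0.395 in basal libraries 1 to 5, a wider range than that of Krt8 to Krt18 in either layer.

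Krt15, a type I keratin known from the hair follicle bulge, was the least even of the abundant basal members. It was at 3.19, 3.37, 1.35, 6.34 and 4.19 CPM in luminal and 109, 74.4, 132, 277 and 71.1 CPM in basal libraries. Animal 4 was the highest in both layers, as for Krt19. The CV over basal libraries was 63.9%, where counting error alone would give 2.23%. The groups did not overlap, with a log2 fold change of -5.18 (SE 0.45, adjusted p = 2.06e-07, edgeR's quasi-likelihood test).

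Krt16, Krt6a and Krt6b are the keratins that skin induces on wounding, and they were lower in level per length than Krt5, Krt14 and Krt17 in basal libraries. Krt16 was at 2.44, 2.48, 2.09, 4.35 and 7.04 CPM in luminal and 234, 154, 154, 193 and 213 CPM in basal libraries, a log2 fold change of -5.69 (SE 0.33, adjusted p = 2.87e-09, edgeR's quasi-likelihood test). Krt6a was at 8.51, 10.3, 4.54, 7.94 and 7.68 CPM in luminal and 21.2, 27.8, 30.3, 33.0 and 19.4 CPM in basal libraries, a log2 fold change of -1.75 (SE 0.23, adjusted p = 1.09e-05, same test). Krt6b was at 1.88, 2.42, 0.920, 3.44 and 1.71 CPM in luminal and 11.4, 16.6, 13.8, 14.7 and 11.5 CPM in basal libraries, a log2 fold change of -2.72 (SE 0.30, adjusted p = 2.38e-06, same test). Krt6a had the smallest difference of the 7 basal members.

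The low-level members share sequence with abundant ones and with other genes, which matters for reads of 51 bases. Of all 51-base windows of the longest coding transcript, 61.8% in Krt6a, 49.7% in Krt6b, 37.0% in Krt16, 13.8% in Krt14, 12.1% in Krt5 and 3.598% in Krt17 also occur in another gene. Krt6a shares most of them with Krt6b (43.3% of its windows), and 6.64% with Krt5. Krt6b shares 44.2% of its windows with Krt6a and 2.15% with Krt5. Krt16 shares 25.0% with Gm11597 and 12.0% with Krt14. The longest identical coding stretch of Krt14 and Krt16 is printed from GENCODE M21 transcripts in the sense of transcription, as an example of a place where a read cannot be told apart. It has 134 bases, at coding bases 306 to 439 of Krt14 and 282 to 415 of Krt16. Capitals mark the identical stretch and lower case the 20 bases on either side.
Krt14: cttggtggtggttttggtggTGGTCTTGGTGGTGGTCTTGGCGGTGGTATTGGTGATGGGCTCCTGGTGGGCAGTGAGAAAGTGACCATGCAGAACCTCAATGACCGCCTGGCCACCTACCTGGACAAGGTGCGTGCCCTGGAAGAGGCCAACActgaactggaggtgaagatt
Krt16: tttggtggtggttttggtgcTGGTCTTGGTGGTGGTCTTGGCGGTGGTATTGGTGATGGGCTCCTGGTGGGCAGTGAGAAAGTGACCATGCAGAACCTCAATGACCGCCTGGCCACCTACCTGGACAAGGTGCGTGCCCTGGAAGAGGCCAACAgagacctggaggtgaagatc

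Set against the abundant member, the ratios of Krt6a and Krt16 were steady among basal libraries. Krt6a had 1.57, 1.53, 1.51, 1.56 and 1.47 counts per 100 Krt5 counts in basal libraries 1 to 5, a CV of 2.62%, where the levels of Krt6a and Krt5 had CVs of 22.2% and 21.4% and counting error alone gave Krt6a a CV of 5.01%. Krt16 had 7.69, 6.83, 7.87, 8.25 and 8.27 counts per 100 Krt14 counts, a CV of 7.54%. Krt6b per 100 Krt5 counts ranged from 0.687 to 0.912, with a wider CV. Krt15 per 100 Krt14 counts was not steady, with a CV of 67.5%, and Krt15 shares 0.545% of its windows with another gene.

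In luminal libraries the ratios of Krt6a to Krt5 and of Krt16 to Krt14 were higher and wider. Krt6a ranged from 43.9 to 242 counts per 100 Krt5 counts, and Krt16 from 26.3 to 39.1 per 100 Krt14 counts. The CV of Krt6a to Krt5 was 73.4%, where counting error alone gave Krt6a 9.01% and Krt5 8.02%. That of Krt16 to Krt14 was 16.1%, where counting error alone gave Krt16 13.1% and Krt14 7.31%. The part of counting error in these widths was not tested. The ranges did not overlap with those of basal libraries. How reads that fit several genes were counted is not stated, and the part of shared reads in these ratios was not tested.

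**Figure D3:**
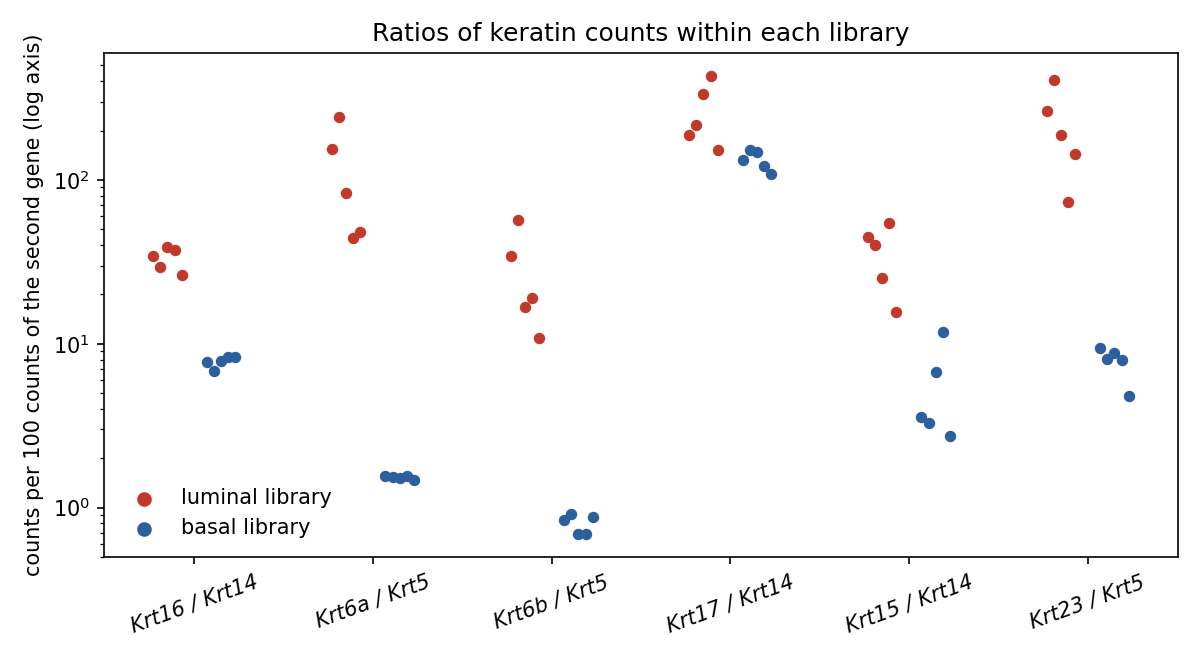
Counts of 1 keratin per 100 counts of another within each library, on a log axis, with 1 point per library (red, luminal; blue, basal). The 5 basal points of Krt6a to Krt5 lie between 1.47 and 1.57, whereas those of Krt15 to Krt14 and all the luminal ratios of Krt6a, Krt6b and Krt23 to Krt5 are spread widely.

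Levels of different keratins were ranked per length only. In luminal libraries the means were 2643 ± 453 CPM per kb for Krt18, 1842 ± 428 for Krt19, 1199 ± 212 for Krt8 and 260.0 ± 21.0 for Krt7 (SD, n = 5 each), and the next was Krt17 at 18.03 ± 10.5. The ranges of Krt18 and Krt19 overlapped over libraries, while that of Krt8 (861 to 1387) ended below that of Krt19, which started at 1534. In basal libraries the order was Krt17 (2054 ± 338), Krt14 (1432 ± 239.6), Krt5 (783 ± 167), Krt18 (376 ± 82.9), Krt8 (260.4 ± 38.1), Krt16 (121 ± 22.9), Krt23 (87.2 ± 29.0), Krt15 (78.0 ± 49.8) and Krt19 (58.1 ± 26.5). The ranges of Krt17 and Krt14 did not overlap, the former starting at 1807 and the latter ending at 1790.5, while those of Krt23, Krt15 and Krt19 did. Neither order changed when coding length or the number of read starts within 1 exon replaced transcript length.

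The sums of type I and type II keratins per kilobase stood at a ratio of 3.06 ± 0.242 in luminal and 3.94 ± 0.953 in basal libraries (mean ± SD, n = 5 each). The ranges overlapped. Transcripts of type I thus exceeded those of type II in every library on this scale, from 2.85 to 5.28. The size of this ratio depends on the length used, since Krt7 has 4094 transcript bases but 1371 coding bases. Coding lengths were not used for it. Without division by length, mean sums of type I and type II were 6778 and 3469 CPM in luminal libraries. In basal libraries they were 6771 and 2394 CPM.

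Keratins of one layer were read in the other layer to unequal degrees. Relative to their mean in basal libraries, Krt5 was at 0.248% to 1.05%, Krt14 at 0.219% to 1.10% and Krt17 at 0.418% to 1.57% in luminal libraries. Krt15 (1.02% to 4.78%), Krt16 (1.10% to 3.72%) and Krt23 (7.55% to 16.7%) reached higher shares. Krt6a, at 4.54 to 10.3 CPM in luminal libraries against a basal mean of 26.3 CPM, and Krt6b, at 0.920 to 3.44 CPM against 13.6 CPM, also lay above the shares of Krt5, Krt14 and Krt17. Basal markers that are not keratins were as unequal. The contractile genes Acta2, Myh11, Mylk and Cnn1, the oxytocin receptor gene Oxtr and the basal transcription factor gene Trp63 lay between 0.0259% and 0.731%, while Tagln (0.765% to 2.94%) and Vcam1 (0.478% to 2.38%) reached higher. Itga6, which encodes the sorted protein CD49f, was at 119 to 175 CPM in luminal libraries against a basal mean of 356 CPM.

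In the reverse direction the luminal keratins divided into pairs. Relative to their mean in luminal libraries, Krt8 was at 18.3% to 26.7% and Krt18 at 11.1% to 19.1% in basal libraries, while Krt7 was at 2.76% to 5.84% and Krt19 at 1.85% to 5.42%. Other luminal genes were as unequal. Epcam, on which the cells were sorted, was at 13.8% to 23.5%, whereas the prolactin receptor gene Prlr was at 0.00524% to 0.184% and the receptor gene Kit at 0.428% to 0.935%. The part of luminal cells in the basal gate was not tested.

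Epidermal and mucosal differentiation keratins held the 5 keratins with the widest spread, as CV, between basal libraries among the 23 tested. For Krt79 and Krt78 this is the spread of values near 0. Their basal CVs were 224% and 184%, where counting error alone would give 103% and 47.5%. Of 12 members, 5 were tested, 2 were higher in luminal libraries, against 33.6% of all genes tested, and 3 were not called. The 2 called, Krt79 and Krt78, had passed the filter on low counts through their luminal libraries, so the filter largely set this direction. Krt10, the type I keratin of suprabasal epidermis, was at 2.13, 4.53, 5.40, 35.9 and 16.0 CPM in luminal and 3.12, 2.32, 2.79, 247 and 10.1 CPM in basal libraries. Animal 4 was the highest and animal 5 the second highest in both layers, and the CV was 204% over basal libraries, where counting error alone would give 3.53%. The log2 fold change of -2.06 (SE 1.19, adjusted p = 0.144, edgeR's quasi-likelihood test) rested on basal library 4, without which it was 1.45 (adjusted p = 0.0955).

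Krt1, the type II partner of Krt10, followed the same animals. It was at 1.56, 1.37, 1.96, 6.18 and 5.01 CPM in luminal and 0.437, 0.205, 0.387, 112 and 2.58 CPM in basal libraries. In 4 of 5 animals the luminal library was the higher one, and animal 4 was the exception. This gave a log2 fold change of -2.86 (SE 1.33, adjusted p = 0.0724, edgeR's quasi-likelihood test). Without basal library 4 it was 1.78 (adjusted p = 0.0467, same test), and without basal library 1, 2 or 3 it was -3.19, -3.19 or -3.13 with adjusted p-values of 0.0444, 0.0401 and 0.0457, so the side of the threshold and the direction both hung on single libraries. With the animal as a replicate block it was 0.43 (adjusted p = 0.709).

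Krt77, a type II keratin of skin, had the same pattern at a lower level. It was at 1.38, 0.790, 0.0613, 8.40 and 5.96 CPM in luminal and 0.0624, 0.0682, 0, 24.1 and 2.76 CPM in basal libraries. The log2 fold change of -0.73 (SE 1.28, adjusted p = 0.636, edgeR's quasi-likelihood test) became 2.12 (adjusted p = 0.146) without basal library 4 and 1.06 (adjusted p = 0.257) with the animal as a replicate block.

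Of the epidermal list without keratins, Krtdap and Dsg1a, named after their values were seen, had counts in animals 4 and 5 alone. Krtdap, a gene of differentiating keratinocytes, was at 2.06 and 2.60 CPM in luminal libraries 4 and 5, at 13.6 and 0.719 CPM in basal libraries 4 and 5, and at 0 in the other 6. Dsg1a, a desmosomal cadherin gene of epidermis, was at 0.534 and 0.825 CPM in luminal and 12.4 and 0.120 CPM in basal libraries 4 and 5, and at 0 in the other 6. The summed level of the whole list followed them in part. Among basal libraries it was highest in library 4 (84.7 CPM, against 31.6 to 50.5 CPM in the others). Among luminal libraries it was highest in library 5 (113 CPM) and lowest in library 4 (62.5 CPM). Most of the sum was Sbsn. Of the 11 genes of this list, 9 were in the table and 2 were tested, Sbsn and Tchh, both higher in luminal libraries. Lce1a1 and Hoxc13 were at 0 everywhere, Ivl was at most 0.508 CPM and Lor at most 2.58 CPM. The part of epidermal cells in the Krt1, Krt10 and Krt77 values was not tested.

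**Figure D4:**
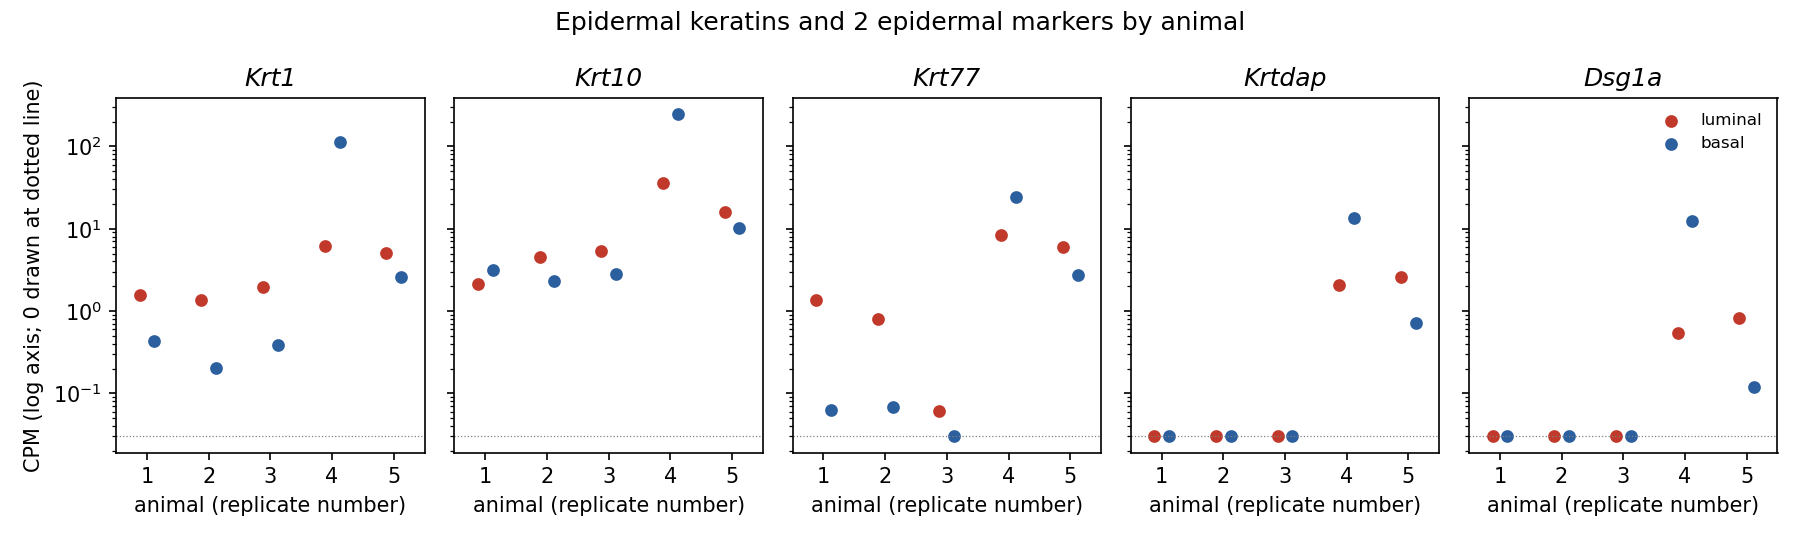
Krt1, Krt10, Krt77 and the epidermal genes Krtdap and Dsg1a by animal, in CPM on a log axis with 0 at the dotted line (red, luminal; blue, basal). All 5 genes are highest in basal library 4, at 12.4 to 247 CPM, and Krtdap and Dsg1a are at 0 in animals 1 to 3.

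Krt79 and Krt78, type II keratins of the follicle opening and of suprabasal layers, were the called members of this class. Krt79 was at 1.31, 2.26, 0.675, 3.66 and 11.7 CPM in luminal libraries, at 0.313 CPM in basal library 4 and at 0 in the other 4 basal libraries, a log2 fold change of 5.75 (SE 1.06, adjusted p = 0.000271, edgeR's quasi-likelihood test). Krt78 was at 1.38, 6.95, 2.09, 3.82 and 1.33 CPM in luminal and 0, 0, 0.155, 1.25 and 0.0599 CPM in basal libraries, a log2 fold change of 3.36 (SE 0.91, adjusted p = 0.00496, same test). Both are low-level transcripts, and the 1 basal library in which Krt79 was read was again that of animal 4. Without basal library 4 the log2 fold change of Krt78 was 5.74, and the fitted value of Krt79 (8.93) rests on basal libraries at 0 and is no measure of size. Without both libraries of that animal, 7 keratins were called higher in luminal and 12 in basal libraries.

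Keratins of the hair follicle were read at low levels in both layers. Of 9 root sheath members, 2 were tested and both were higher in basal libraries, against 31.2% of all genes tested. Both had passed the filter on low counts through their basal libraries, so the filter largely set this direction. Krt71, of the inner root sheath, had no count in luminal libraries and was at 1.43, 1.09, 1.78, 1.81 and 1.38 CPM in basal libraries, at least 7.90-fold higher when luminal libraries are set to 3 counts each. Krt75, of the companion layer, was at 1.56 CPM in luminal library 1 and at 0 in the other 4, and at 4.55, 6.00, 1.32, 1.88 and 1.02 CPM in basal libraries. Its log2 fold change was -3.20 (SE 1.06, adjusted p = 0.0164, edgeR's quasi-likelihood test), a call that DESeq2 did not make (-3.27, adjusted p = 0.0891). All its luminal counts were in luminal library 1, and the fitted value without that library (-8.53) rests on luminal libraries at 0 and is no measure of size.

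Hair shaft members numbered 15, of which 2 were tested, 1 being higher in luminal and 1 in basal libraries, against 33.6% and 31.2% of all genes tested. Krt83 was at 0.876, 1.95, 0.491, 1.45 and 2.47 CPM in luminal and 30.6, 12.8, 12.1, 6.00 and 16.7 CPM in basal libraries, a log2 fold change of -3.42 (SE 0.47, adjusted p = 1.8e-05, edgeR's quasi-likelihood test). Krt87 was at 4.69, 6.22, 3.62, 7.33 and 6.66 CPM in luminal and 2.25, 2.39, 1.32, 0.938 and 1.498 CPM in basal libraries, a log2 fold change of 1.76 (SE 0.34, adjusted p = 0.000365, same test). These genes share sequence with other genes, and 22.6% of the windows of Krt83, 36.3% of Krt87, 43.1% of Krt81 and 43.0% of Krt86 occur elsewhere, so their values are uncertain. Krt83 shares 11.5% of its windows with Krt87, and Krt87 shares 8.84% with Krt83. The hair shaft transcription factor gene Hoxc13 was at 0 in all 10 libraries.

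Among the 5 other members, Krt42 and Krt80 were tested. Krt42, a type I gene beside Krt17 at chr11:100262882-100269951, was at 0.0625, 0.685, 0, 0.611 and 0.190 CPM in luminal and 12.1, 6.34, 5.34, 6.19 and 6.35 CPM in basal libraries, a log2 fold change of -4.52 (SE 0.61, adjusted p = 1.52e-05, edgeR's quasi-likelihood test). Krt42 had passed the filter on low counts through its basal libraries, so the filter largely set this direction. Krt80, a type II keratin of differentiating epithelia, was at 29.1, 19.9, 11.5, 9.85 and 9.96 CPM in luminal and 15.3, 25.4, 21.4, 21.1 and 17.0 CPM in basal libraries. The groups overlapped, with a log2 fold change of -0.32 (SE 0.29, adjusted p = 0.354, same test), and luminal library 1 decided the call, since without it the value was -0.63 (adjusted p = 0.0338).

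The 31 keratins not tested had at most 32 counts in any library. Of these, 10 reached 10 counts in a library. Krt81, Krt86 and Krt90 had their highest counts in basal library 1 (27, 27 and 32), and Krt9 and Krt25 were read in basal libraries alone, with at most 13 and 10 counts. Krt31 and Krt33b had their highest counts in luminal library 4 (12 and 14) and Krt88 in luminal library 2 (18). Krt28 reached 10 counts in basal library 4, and Krt20 is given above. The remaining 16 with a count reached at most 9 in any library. At this depth a keratin with no count in a library is limited to 3 counts there, for counting error only.

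Genes that work with keratin filaments were read from lists of their own. Of 16 other intermediate filament genes, 10 were tested, 5 were higher in basal and 2 in luminal libraries, a share near the 64.8% of all genes tested that were called, with a median log2 fold change of -0.45 against 0.05 over all genes. In basal libraries Synm (synemin) had a log2 fold change of -5.81, Vim (vimentin) of -4.80 and Des (desmin) of -4.71, with no overlap between the groups. Vim stood at 6.05 ± 1.87 CPM in luminal and 169 ± 47.6 CPM in basal libraries (mean ± SD, n = 5 each). Higher in luminal libraries were Gfap (1.13) and Lmnb2 (0.80), whose groups overlapped.

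Of 22 genes that link or regulate keratin filaments, 21 were in the table and tested. Higher in luminal libraries were 8 and higher in basal libraries 8, near the 33.6% and 31.2% of all genes tested, and the median log2 fold change was -0.01. The cornified envelope linkers Evpl (envoplakin, 5.34) and Ppl (periplakin, 1.76), the desmosomal plakophilin Pkp2 (3.72) and the small heat shock protein gene Hspb1 (1.82) were on the luminal side. On the basal side were Pkp1 (-1.90), desmoplakin (Dsp, -1.68), which anchors keratin to desmosomes, and the TRIM family gene Trim29 (-1.62). The groups did not overlap for any of these 7 genes, which were picked from the 21, and 50.1% of all genes tested had no overlap. They did overlap for Plec, Eppk1 and Dnajb6, which were also called.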

How the data were processed

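The data were bulk RNA-seq libraries of 5 luminal and 5 basal fractions, sorted after digestion with collagenase and hyaluronidase, trypsin and dispase. The deposited values are raw read counts for each gene, under Entrez identifiers and not normalized by the authors. For RNA-seq the study describes poly(A) selection, single-end reads of 51 bases, trimming with cutadapt (4.2) and alignment to mm10 with Bowtie2 (2.3.5.1), the versions being those of the submitters' processing notes, whereas the study's text names another Bowtie2 version. That text speaks of fewer replicates than the 5 here, so these steps were assumed to hold. The counting tool, its annotation, strand and multimapping rules are not given in the sources used here. Bowtie2 does not align across splice junctions, which lowers counts of genes with many short exons.

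Symbols came from a RefSeq table of GRCm38.p6, matched for 24570 of 24594 genes, with 24 unmatched. Gene positions are from that table, and transcript lengths and sequences from GENCODE M21, found for all 54 keratins. The members and gene lists were chosen with earlier results of these data known. Named with every library are keratins with a mean of at least 10 CPM in either layer and, beyond that rule, the other tested keratins.

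Genes passed filterByExpr (minimum count 10, minimum total 15), totals were scaled with TMM, and layers were compared with edgeR 4.0.16 in R 4.3.3 (quasi-likelihood test, two-sided, cell type as the only term, Benjamini-Hochberg adjustment, threshold 0.05). Fold changes are luminal over basal. The method was tested on simulated data. There, 39 of 63 changes of size 1 on the log2 scale, 62 of 65 of size 2 and 70 of 71 of size 3 were recovered. It made 13 false calls among 14609 genes. Far fewer genes were changed there than the 64.8% called here, so it did not test scaling under so wide a difference. Alternatives were other scalings and filters, DESeq2 1.42.0, limma voom 3.58.1, the animal as a block, and each library left out. Leaving out animals 4 and 5 was added after the data were seen. The pairing comes from the first number in each library description, which a luminal and a basal library have in common and which was read as the animal. Their deviations from the group means correlated at 0.0345 on average (-0.0952 to 0.149). No 2 libraries looked like 1 library deposited again (lowest chi-square per degree of freedom 15.0), which separate animals would give in any case. Intervals and floors cover counting error only.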

Additional observations from a re-analysis of the deposited data

Results flagged for a closer look

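Among 45 sets of 5 values (a keratin in a layer), 8 had 1 library standing apart from the other 4 by Dixon's criterion. The sets are not independent, since keratins of 1 library share it, so no number by chance is set beside the 8. In Krt79 in basal and Krt75 in luminal libraries the other 4 values were 0, so that any count stands apart. Krt78, low in basal libraries, had passed the filter on low counts through luminal libraries. Of the 8, 5 were in basal library 4. Krt10 was at 247 CPM in basal library 4, against 2.32 to 10.1 CPM in the other basal libraries. Krt1 was at 112 CPM there, against 0.205 to 2.58 CPM, and Krt77 at 24.1 CPM, against 0 to 2.76 CPM. Krt78 was at 1.25 CPM in that library, against 0 to 0.155 CPM, and Krt79 at 0.313 CPM, against 0. The summed epidermal list without keratins was 84.7 CPM there, against 31.6 to 50.5 CPM in the other basal and 62.5 to 113 CPM in the luminal libraries.

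The other 3 were spread over 3 libraries. Krt79 was at 11.7 CPM in luminal library 5, where the remaining luminal libraries had 0.675 to 3.66 CPM. Krt75 was at 1.56 CPM in luminal library 1, against 0. Krt42 was at 12.1 CPM in basal library 1, against 5.34 to 6.35 CPM.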

How the results depend on the processing

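Of 449 alternative log2 fold changes of keratins, 432 kept the direction and the side of the threshold, and 18 of the 23 keratins tested did so under every alternative run. The count of keratins higher in luminal libraries was 7 and ranged from 5 (at least 10 counts in every library) to 9 (no filter), and that in basal libraries was 12 and ranged from 8 to 18 under the same filters, which change how many keratins are tested. Leaving out single libraries gave 7 to 8 and 12 to 13. With the animal as a replicate block the counts were 7 and 12. Krt75 lost its call with DESeq2 (-3.27). The size of the largest basal differences also moved. Over the alternatives run, the log2 fold change was -8.45 to -7.51 for Krt14, -8.42 to -7.25 for Krt5 and -7.72 to -6.64 for Krt17.

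The direction turned in Krt1, Krt10 and Krt77. For Krt1 the log2 fold change was 0.49 with limma voom, 0.43 with the replicate block, 1.42 without both libraries of animal 4 and 2.21 (adjusted p = 0.0062, edgeR's quasi-likelihood test) without animals 4 and 5, and -3.23 to 1.78 with single libraries left out. For Krt10 it was 0.60 without animal 4, 0.54 without animals 4 and 5, and -2.92 to 1.45 with single libraries left out. For Krt77 it was 1.31 with voom, 1.06 with the replicate block, 1.43 without animal 4 and -1.42 to 2.12 with single libraries left out. All turned without basal library 4. The cause was not tested. Library totals in place of TMM shifted the median of all genes by 0.19 and upper-quartile factors by 0.12 on the log2 scale, with no keratin call changed. Keratins with under 10 counts are limited by depth.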
